A study of Mus musculus with 3 samples.

Results

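MHC class II genes were followed in single-cell RNA-seq of embryonic mouse thymuses from 3 genotypes. The 7 genes were Cd74, H2-Aa, H2-Ab1, H2-Eb1, H2-DMa, H2-DMb1 and Ciita, out of 27998 genes in the tables. They were chosen by name, and their unique molecular identifiers (UMIs, each marking a captured RNA molecule) were summed over cells sorted by 1 or more UMIs of a marker gene. Epcam-positive cells had Epcam and no Ptprc. There were 2213 of them among 5932 kept control cells, 1091 among 5516 cells of the library labelled Tbx1neo2/neo2 and 4958 among 11772 Foxn11089/1089 cells. Ptprc-positive cells had Ptprc and no Epcam, and numbered 868, 235 and 342 in the same order. Among them, cells with only C1qa (26, 35 and 46), only Napsa (383, 73 and 193) or only Cd3g (103, 4 and 2) were taken for macrophages, dendritic cells and thymocytes, as far as other markers bore this out.

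MHC class II molecules are pairs of an alpha and a beta chain that carry peptides to the cell surface for CD4 T cells to read. H2-Aa and H2-Ab1 encode the chains of mouse I-A, and H2-Eb1 encodes the beta chain of I-E, whose alpha gene is defective in C57BL/6 mice. Cd74 encodes the invariant chain, which fills the groove of new class II molecules on their way to the endosome, and H2-DMa and H2-DMb1 encode H2-DM, which exchanges its remnant for peptide there. Ciita encodes the coactivator on which transcription of these genes depends. In the thymus, class II on cortical epithelial cells serves positive selection of CD4 T cells, while medullary epithelial cells, dendritic cells and macrophages display it for tolerance.

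The lobes came from C57BL/6 embryos at gestational day 13 to 13.5 and were dissociated whole with trypsin. The control was wild type, the Tbx1neo2/neo2 embryos carried on both alleles of Tbx1 a neomycin cassette that lowers its expression as a model of 22q11.2 deletion syndrome, and the Foxn11089/1089 embryos carried on both alleles a small deletion in Foxn1, the transcription factor that drives thymic epithelial development. Each genotype is 1 droplet library, and neither the number of embryos in a library nor their sex is given in the sources used here. With 1 library per genotype no difference has a replicate check, no test was run, and the 95% intervals in brackets cover counting error only.

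Over all kept cells Tbx1 had 1.39 counts per 1000000 UMIs (CPM) in the control, 4.81 CPM in the library labelled Tbx1neo2/neo2 and 5.43 CPM in the Foxn11089/1089 library, so Tbx1 was not lower in the library that bears its name. Foxn1 had 38.4, 34.6 and 76.5 CPM in the same order; the deletion lies in the coding part, and the allele still yields a transcript. The libraries held 82936619, 137498422 and 204655055 UMIs, and between 17 and 28 cell barcodes were found in both libraries of a pair.

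Class II genes are read through a shared promoter module in which an X box, bound by the RFX factors and CREB1, stands a fixed distance from a Y box, bound by NF-Y, with CIITA docking on the assembled proteins. H2-Aa (GRCm38 chr17:34282744-34287823, minus strand), H2-Ab1 (chr17:34257689-34269419), H2-Eb1 (chr17:34305867-34316674), H2-DMa (chr17:34119541-34139101) and H2-DMb1 (chr17:34153072-34160230) lie together in the MHC, and Ciita lies at chr16:10480059-10528418. The letters GNAAC, then 20 to 32 bases, then GATTGG, a plain spelling of part of the X box and of the Y box, were searched on both strands of RefSeq promoter windows of GRCm38.p6, from 250 bases before a start site to 50 after. Both parts were found in 248 of 32851 windows (0.755%), and GATTGG alone in 5292 (16.1%). Windows were at hand for 4 of the 7 genes. Those of H2-DMa, chr17:34122582-34122881 and chr17:34125268-34125567, lie inside the span given above, and no other H2-DMa start site was searched. H2-Aa, H2-Eb1 and H2-DMb1 held the pair, while these H2-DMa windows did not. The 150 bases before the start site are printed below 5′ to 3′ on the gene's strand for the 3 genes that held it and for H2-DMb2, the near copy of H2-DMb1, which did not; capitals mark the letters matched. A match is a description of the letters and not evidence of binding.
H2-Aa, chr17:34287824-34287973, minus strand: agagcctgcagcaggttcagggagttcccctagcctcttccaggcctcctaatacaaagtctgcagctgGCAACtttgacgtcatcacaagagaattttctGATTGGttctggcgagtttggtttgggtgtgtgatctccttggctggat
H2-Eb1, chr17:34305717-34305866, plus strand: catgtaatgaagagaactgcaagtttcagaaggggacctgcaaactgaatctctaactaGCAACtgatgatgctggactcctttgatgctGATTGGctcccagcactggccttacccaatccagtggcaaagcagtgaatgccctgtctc
H2-DMb1, chr17:34153041-34153190, plus strand: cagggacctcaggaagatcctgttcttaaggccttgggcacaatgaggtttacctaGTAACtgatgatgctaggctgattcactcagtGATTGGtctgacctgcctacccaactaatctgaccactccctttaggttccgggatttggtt
H2-DMb2, chr17:34145099-34145248, plus strand: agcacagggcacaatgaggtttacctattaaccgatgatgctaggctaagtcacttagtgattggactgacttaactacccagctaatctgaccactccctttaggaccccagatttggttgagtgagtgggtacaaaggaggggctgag

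The gap between the matched letters was 27 bases in H2-Aa, 26 in H2-Eb1 and 27 in H2-DMb1, and the first part began 81, 91 and 94 bases before the start site. Of 4 further class II genes, H2-Oa, H2-Ob and H2-Eb2 held the pair in a window and H2-DMb2 did not. H2-DMb1 and H2-DMb2 are so alike in sequence that 3′ reads may be lost or swapped between them, and their counts are uncertain for that reason.

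Epcam-positive cells held most class II RNA of the control thymus. They carried 83.1% (82.7 to 83.4) of all control UMIs of the 7 genes and 87.3% (86.9 to 87.7) of those in the library labelled Tbx1neo2/neo2, against 33.1% (32.4 to 33.8) in the Foxn11089/1089 library. There, Ptprc-positive cells held 38.3%, against 8.88% and 3.80% in the other libraries. Cells with both Epcam and Ptprc, which fell in neither gate, held another 25.05% in Foxn11089/1089, against 2.30% for the control and 7.16% for the library labelled Tbx1neo2/neo2.

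**Figure D1:**
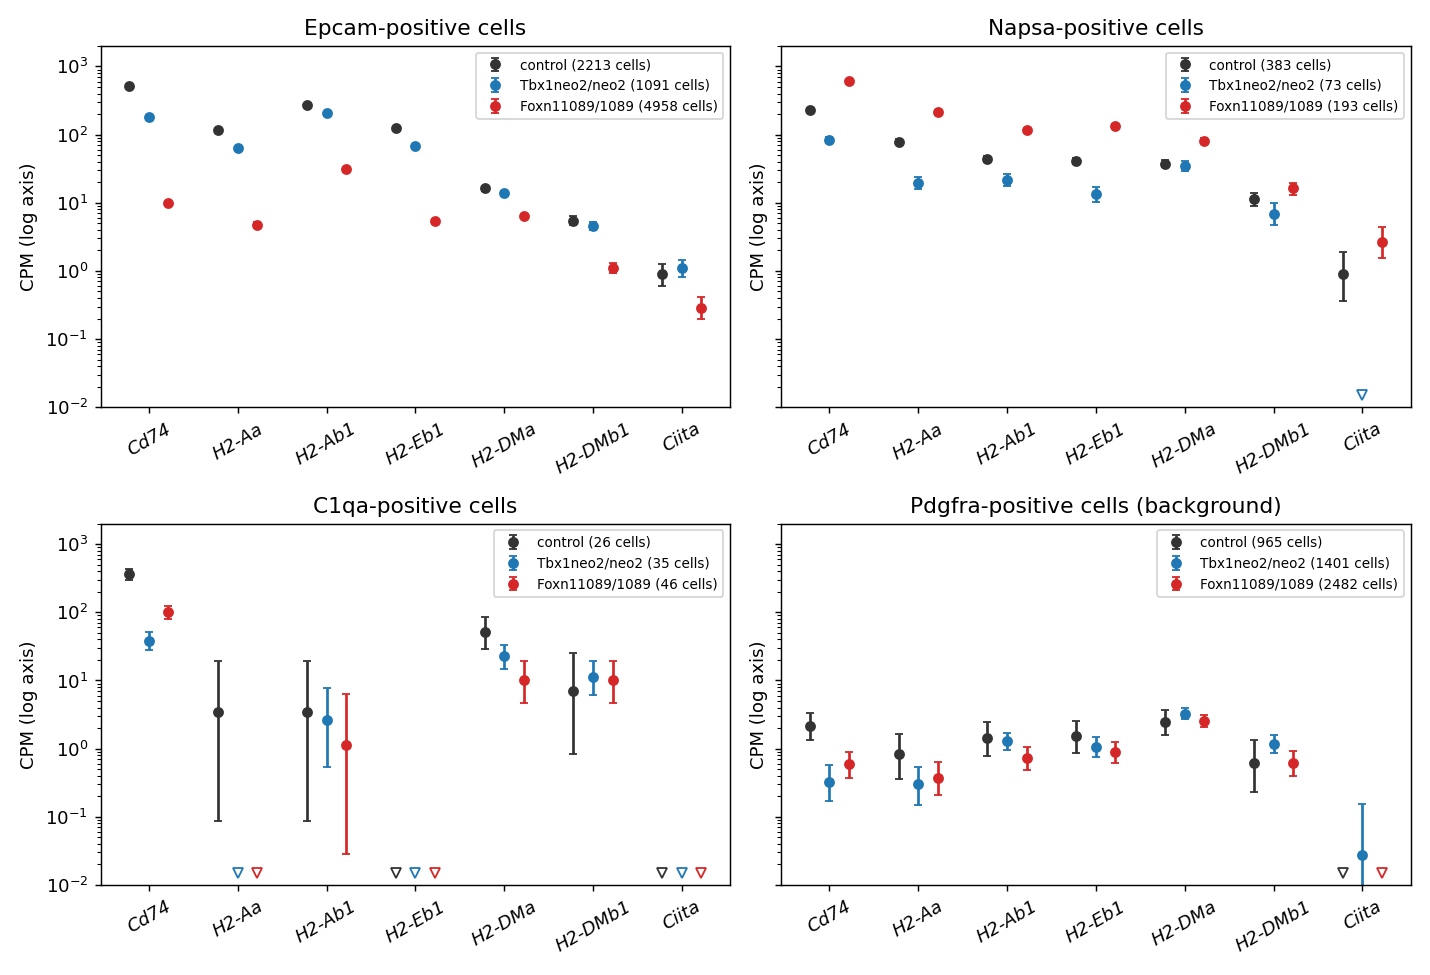
Level of each of the 7 genes (CPM, log axis) in Epcam-positive, Napsa-positive, C1qa-positive and Pdgfra-positive cells of the 3 libraries; points are summed UMIs scaled to CPM, bars are 95% Poisson intervals and open triangles at the foot of an axis mark 0 UMIs. In Epcam-positive cells Cd74 goes from 512 CPM in the control to 182 and 9.83 CPM, whereas in Napsa-positive cells it is highest in Foxn11089/1089, at 604 CPM.

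In Epcam-positive cells all 7 genes were at least 2-fold lower in Foxn11089/1089 than in the control, and Cd74 differed most. Their summed level went from 1050.1 CPM (1039.5 to 1061) to 58.6 CPM (57.1 to 60.0), 17.9-fold lower. When cells with Ptprc as well were let into the gate, the log2 ratio of the sum was -3.24 in place of -4.16, and that of Cd74 -3.88 in place of -5.70. Of all genes with at least 30 UMIs over both libraries, 8.32% were at least 2-fold lower in Foxn11089/1089. Over all those genes the median log2 ratio was 0.28, and over the 7 genes it was -3.15.

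Cd74 had 18353 UMIs in control cells (512 CPM, 504 to 519), 8694 in the library labelled Tbx1neo2/neo2 (182 CPM, 178 to 186) and 1091 in Foxn11089/1089 (9.83 CPM, 9.25 to 10.4). The Foxn11089/1089 level was 52.1-fold below the control (log2 ratio -5.70, -5.79 to -5.61), and 38 of 15359 genes, Cd74 included, were as low or lower by ratio. The invariant chain RNA therefore stood near the far end of all genes in this gate.

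The peptide-binding chains came next. H2-Aa had 117, 63.2 and 4.78 CPM in control, library labelled Tbx1neo2/neo2 and Foxn11089/1089, which put Foxn11089/1089 24.4-fold below the control (log2 ratio -4.61). H2-Eb1 had 126, 67.9 and 5.37 CPM, 23.4-fold lower (log2 ratio -4.55). These chain genes kept close to each other in every library, although I-E protein cannot form in this strain. H2-Ab1, with 273, 207 and 30.8 CPM, was 8.88-fold lower in Foxn11089/1089 (log2 ratio -3.15), and so stood less far below the control than its partner H2-Aa, the intervals of these ratios lying apart.

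The H2-DM genes and Ciita differed least. H2-DMa had 16.4, 13.7 and 6.39 CPM, 2.57-fold lower in Foxn11089/1089 (log2 ratio -1.36). H2-DMb1 had 5.46, 4.497 and 1.11 CPM (log2 ratio -2.30). Ciita was near the limit of detection throughout, with 32 UMIs in the control, 52 in the library labelled Tbx1neo2/neo2 and 32 in Foxn11089/1089, and its log2 ratio of -1.63 in Foxn11089/1089 has an interval from -2.38 to -0.88.

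**Figure D2:**
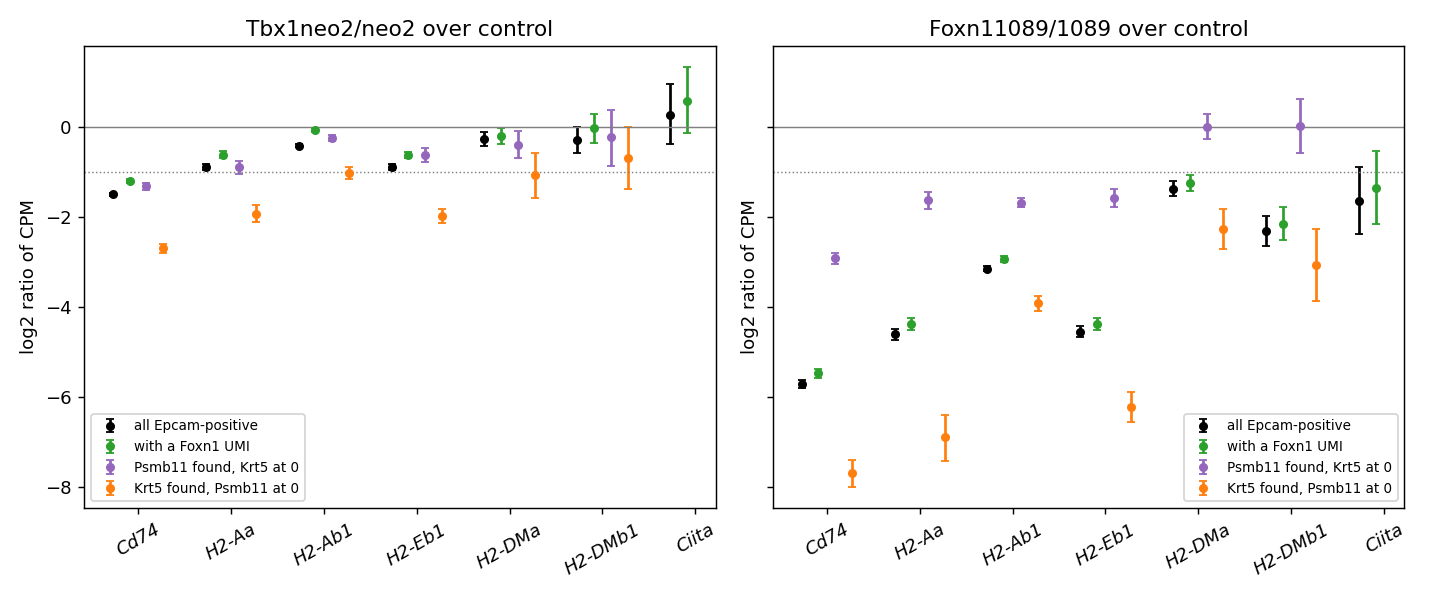
Log2 ratio of each gene's level in Epcam-positive cells, mutant library over control, with 95% conditional binomial intervals; the dotted line marks a 2-fold lower level (-1). In Foxn11089/1089 all 7 genes lie below the line, from -1.36 for H2-DMa to -5.70 for Cd74, and in the library labelled Tbx1neo2/neo2 only Cd74 does, at -1.49.

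In the library labelled Tbx1neo2/neo2 the summed level in Epcam-positive cells was 539 CPM (532 to 546), 1.95-fold below the control. Cd74 was 2.81-fold lower (log2 ratio -1.49) and was the only 1 of the 7 genes past 2-fold, beside 4.75% of all genes lower by that much. H2-Aa and H2-Eb1 followed at log2 ratios of -0.88 and -0.89, and H2-Ab1 at -0.40. H2-DMb1 at -0.28 (-0.57 to 0.01) and Ciita at 0.29 (-0.38 to 0.97) had intervals that include no difference. The order Cd74, then H2-Aa and H2-Eb1, then H2-Ab1 was thus the one seen in Foxn11089/1089, though both comparisons share the control cells.

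The scale of these ratios depends on how the libraries are set level. With median-of-ratios size factors in place of total UMIs, every log2 ratio of a gate moved by a constant, -0.40 for the library labelled Tbx1neo2/neo2 and -0.23 for Foxn11089/1089 in Epcam-positive cells. In the former H2-Aa (-1.28) and H2-Eb1 (-1.29) then passed 2-fold beside Cd74, and Ciita turned from 0.29 to -0.11, while in Foxn11089/1089 all 7 genes stayed past 2-fold. Of all genes, 4.75% were lower and 20.6% higher by 2-fold in the library labelled Tbx1neo2/neo2 with total UMIs, and 10.6% and 10.4% with size factors. In Foxn11089/1089 the split went from 8.32% and 18.4% to 11.5% and 13.3%. Order among the 7 genes is not touched by this choice.

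The makeup of class II RNA differed between libraries, since the ratio of Cd74 was lower than those of the other genes. For each Cd74 UMI, Epcam-positive cells had 0.534 H2-Ab1 UMIs (0.521 to 0.548) among control cells, 1.14 (1.10 to 1.17) in the library labelled Tbx1neo2/neo2 and 3.13 (2.93 to 3.36) in Foxn11089/1089. For H2-DMa the figure was 0.032, 0.075 and 0.650. In Napsa-positive cells the same H2-Ab1 quotient was 0.190 (0.169 to 0.214), 0.261 (0.207 to 0.327) and 0.192 (0.177 to 0.209). The near-equal control and Foxn11089/1089 values did not hold in a later split by the early T cell genes Lck and Tcf7. With Lck and Tcf7 at 0 the quotient was 0.154 (0.134 to 0.176) in the control and 0.195 (0.178 to 0.213) in Foxn11089/1089. With either gene found it was 0.532 (0.408 to 0.690) and 0.181 (0.147 to 0.222).

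Shares of cells moved in the same direction. A Cd74 UMI was found in 54.2%, 39.3% and 6.70% of Epcam-positive cells in control, library labelled Tbx1neo2/neo2 and Foxn11089/1089, with median depths of 16061, 38845 and 19560.5 UMIs per cell. After each cell was thinned to 2000 UMIs, which left out 80 control cells, the Cd74 shares were 34.1%, 17.1% and 1.36%. H2-Ab1 was the most widely found, in 82.8%, 60.2% and 30.9% of cells (38.7%, 24.8% and 6.01% thinned). H2-Aa was found in 31.6%, 26.6% and 4.01% (14.2%, 7.39% and 0.826% thinned). Pdgfra-positive cells, a mesenchymal type that should lack class II, gave thinned shares of 0.316%, 0.148% and 0.0816% for Cd74 and 0.527%, 0.445% and 0.285% for H2-Ab1, at median depths of 9534, 24804 and 13851.5 UMIs. The Foxn11089/1089 Epcam-positive shares of these genes stood above that level.

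**Figure D3:**
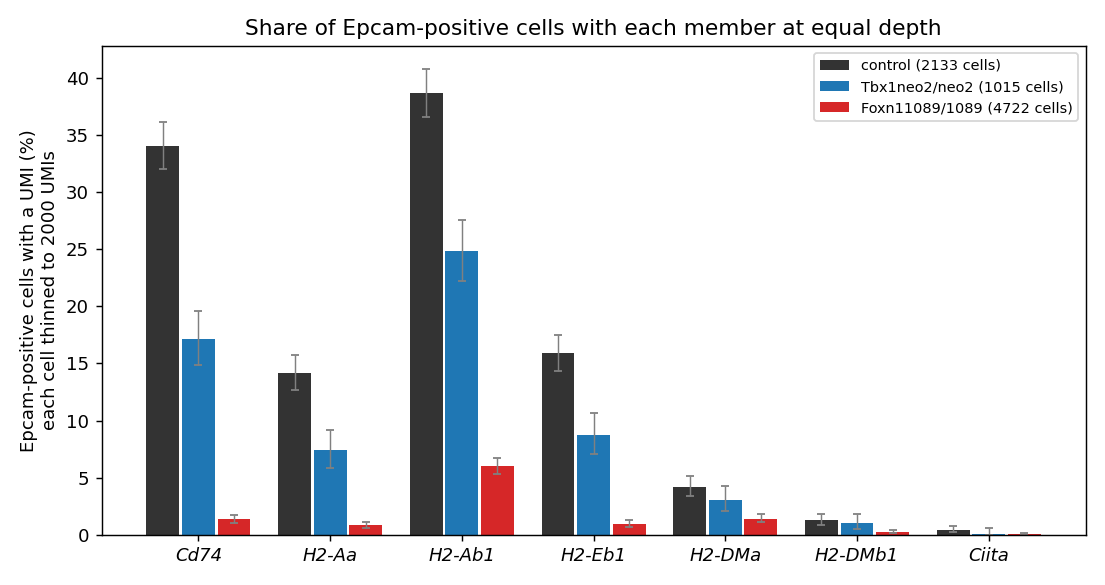
Share of Epcam-positive cells (%) with a UMI of each gene after each cell was thinned to 2000 UMIs, with 95% Clopper-Pearson intervals, in 2133 control cells, 1015 cells of the library labelled Tbx1neo2/neo2 and 4722 Foxn11089/1089 cells. H2-Ab1 and Cd74 are found in 38.7% and 34.1% of control cells and in 6.01% and 1.36% of Foxn11089/1089 cells.

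Within the Epcam-positive cells class II RNA was very uneven. The summed level per cell had a median of 341 CPM in the control, with quartiles of 123 and 1213 CPM, and a median of 130 CPM in the library labelled Tbx1neo2/neo2. In Foxn11089/1089 the median was 0, the upper quartile 54.9 CPM, and 60.1% of cells had no UMI of the 7 genes, against 13.6% of control cells. Cells with at least 20 such UMIs numbered 517 in the control, 293 in the library labelled Tbx1neo2/neo2 and 45 in Foxn11089/1089, and held 76.9%, 87.0% and 25.97% of the class II UMIs of the gate. These cells were 23.4%, 26.9% and 0.908% of the gate, and a limit of 20 UMIs follows both level and depth.

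Cd74, H2-Aa and H2-Ab1 were found together in 29.1% (27.2 to 31.0) of control Epcam-positive cells, 24.4% (21.9 to 27.04) of the library labelled Tbx1neo2/neo2 and 2.34% (1.94 to 2.80) of Foxn11089/1089. H2-Ab1 without Cd74 was found in 30.4%, 22.4% and 25.7% of cells, and Cd74 without H2-Ab1 in 1.85%, 1.47% and 1.55%. Epcam-positive cells with a Ciita UMI numbered 28, 42 and 31, of which 20, 37 and 7 had at least 3 of the other 6 genes. These shares were not thinned and rest on unequal depths.

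The Epcam-positive gate was mainly epithelial in every library, with Krt8 in 91.8%, 81.6% and 83.2% of cells, but its makeup differed. Psmb11, a thymoproteasome subunit of cortical epithelial cells, was found in 62.6%, 47.8% and 11.5% of cells in control, library labelled Tbx1neo2/neo2 and Foxn11089/1089, and Krt5, a keratin of medullary and other basal epithelial cells, in 34.2%, 38.4% and 21.3%. Pth, the parathyroid hormone gene, was found in 7.09%, 0.275% and 62.9%, and also in 71.5% of Napsa-positive cells of Foxn11089/1089. Since Pth was that widespread there, its share is no count of parathyroid cells. Gcm2, the parathyroid regulator, was found in 28, 0 and 389 Epcam-positive cells, the last being 7.85% of the Foxn11089/1089 gate. Foxn1 was found in 60.8%, 55.1% and 60.4%. Of macrophage markers, Adgre1 was in at most 0.367% of Epcam-positive cells of any library, and the dendritic genes Itgax, Cd209a, Xcr1 and Clec9a had between 0 and 5 UMIs each. Other markers of these lists are not given singly. The myeloid factor Spi1 was found in 58, 11 and 47 cells, and Ctss, a cathepsin of marrow-derived presenting cells, in 12, 13 and 32. These markers do not show the gate to be free of presenting cells. The summed mesenchymal markers were 24.2, 88.9 and 98.5 CPM, and their part in the class II levels was not tested.

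The cells were therefore split further by single genes, all chosen after the counts had been seen. Among cells with a Foxn1 UMI (1345, 601 and 2995), the summed class II level was 1241 CPM in the control, 780.3 CPM (771 to 790) in the library labelled Tbx1neo2/neo2 and 78.5 CPM (76.5 to 80.5) in Foxn11089/1089. All 7 genes were again at least 2-fold lower in Foxn11089/1089, beside 7.72% of all genes, and Cd74 alone in the library labelled Tbx1neo2/neo2, beside 3.37%. H2-Ab1 there had 312 and 299 CPM in the control and the library labelled Tbx1neo2/neo2 (log2 ratio -0.06, -0.11 to -0.02), while Cd74 had 610 and 266 CPM (log2 ratio -1.20). The difference of the library labelled Tbx1neo2/neo2 thus lay mainly in Cd74, H2-Aa and H2-Eb1 once Foxn1 was required. Median depths of these cells were 16725, 48282 and 22092 UMIs. A split by 1 UMI takes in more weakly expressing cells at greater depth, so the groups are not alike across libraries.

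Cells in which Foxn1 was at 0 gave another picture. The control cells (868) still had 690.4 CPM (676 to 705), against 38.2 CPM (35.2 to 41.4) in 490 cells of the library labelled Tbx1neo2/neo2 and 14.6 CPM (13.3 to 15.9) in 1963 Foxn11089/1089 cells. In the control these cells held 22.8% of the class II UMIs of the gate, and in the library labelled Tbx1neo2/neo2 2.31%. The median depth of these cells was 14415, 25145.5 and 14382 UMIs, and in the library labelled Tbx1neo2/neo2 203 of all Epcam-positive cells had Nkx2-1 or Foxe1, thyroid genes found in 9 and 32 cells of the other libraries.

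Psmb11 and Krt5 together split the cells by cortical and medullary genes, and of the 4 groups this gave the smallest Foxn11089/1089 difference was in cells with Psmb11 and no Krt5. Cells with Psmb11 and no Krt5 (936, 233 and 434) had 842 CPM (827 to 856) of the 7 genes in the control, 509.6 CPM (496 to 523) in the library labelled Tbx1neo2/neo2 and 215 CPM (207 to 224) in Foxn11089/1089, a log2 ratio of -1.97 for Foxn11089/1089. In these cells H2-DMa was at 17.5, 13.4 and 17.7 CPM and H2-DMb1 at 3.89, 3.33 and 3.97 CPM, with Foxn11089/1089 log2 ratios of 0.02 (-0.26 to 0.29) and 0.03 (-0.57 to 0.62). Cd74 there had 371, 150 and 49.1 CPM, a log2 ratio of -2.92 in Foxn11089/1089. The 434 cells were 8.75% of the Foxn11089/1089 gate and held 35.0% of its class II UMIs, while the 936 control cells were 42.3% of theirs. Requiring Psmb11 thus kept a smaller part of the Foxn11089/1089 cells. The part of this selection in the smaller difference was not tested. Median depths of cells with Psmb11 and no Krt5 were 16040, 43661 and 21398.5 UMIs, so these groups too are not alike across libraries.

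Cells with Krt5 and no Psmb11 (307, 130 and 918) had 1524 CPM in the control, 367 CPM (354 to 381) in the library labelled Tbx1neo2/neo2 and 28.5 CPM (26.4 to 30.7) in Foxn11089/1089. Cd74 in them went from 841 to 130 and 4.05 CPM, a log2 ratio of -7.70 (-8.00 to -7.41) in Foxn11089/1089. Cells with both genes (450, 289 and 137) had 2103 CPM, 1101 CPM and 111 CPM, and cells with neither (520, 439 and 3469) had 236, 46.1 and 43.1 CPM. The control order was both, then Krt5 alone, then Psmb11 alone, then neither, and in Foxn11089/1089 it was Psmb11 alone, then both, with neither above Krt5 alone. Median depths were 16133, 46420.5 and 22231.5 UMIs with Krt5 and no Psmb11, and 15090.5, 46247 and 21432 UMIs with both genes.

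In the control and the library labelled Tbx1neo2/neo2 the highest class II level was in cells with genes of medullary maturation. In 117 control cells with Tnfrsf11a, the receptor for RANK ligand, it was 4203 CPM (4117 to 4291), against 1174 CPM (1148 to 1200) in 91 cells of the library labelled Tbx1neo2/neo2 and 52.7 CPM (40.8 to 66.9) in 34 Foxn11089/1089 cells. These 117 cells were 5.29% of the control gate and held 23.8% of its class II UMIs. Median depths of cells with Tnfrsf11a were 17591, 64682 and 29658.5 UMIs, so 1 UMI does not pick out like cells across libraries. Cells with Fezf2 or Aire, the regulators of self-antigen expression, were 27, 31 and 6, and their class II sums were 3393, 2991 and 1 UMIs. That was 6799.8 CPM (6573 to 7033) in the control and 1779.6 CPM (1716 to 1845) in the library labelled Tbx1neo2/neo2. A single class II UMI among 6 Foxn11089/1089 cells is too few for a fold.

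Epcam-positive cells with a parathyroid or thyroid gene stood below the summed level of all Epcam-positive cells of their library. They were not the lowest group everywhere. In the library labelled Tbx1neo2/neo2, cells with Nkx2-1 or Foxe1 stood above those with neither Krt5 nor Psmb11. Cells with Gcm2, the parathyroid regulator, had 84.2 CPM (58.7 to 117) in 28 control cells and 26.3 CPM (23.6 to 29.1) in 389 Foxn11089/1089 cells, and the library labelled Tbx1neo2/neo2 had none. Cells with Nkx2-1 or Foxe1 had 153 CPM (146 to 160) in that library, and 36.4 CPM (9.92 to 93.2) and 24.9 CPM (16.8 to 35.5) in the control and Foxn11089/1089. Without any Gcm2, Nkx2-1 or Foxe1 cells the log2 ratios of the summed genes were -0.70 for the library labelled Tbx1neo2/neo2 and -4.07 for Foxn11089/1089, compared with -0.96 and -4.16 in all Epcam-positive cells.

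**Figure D4:**
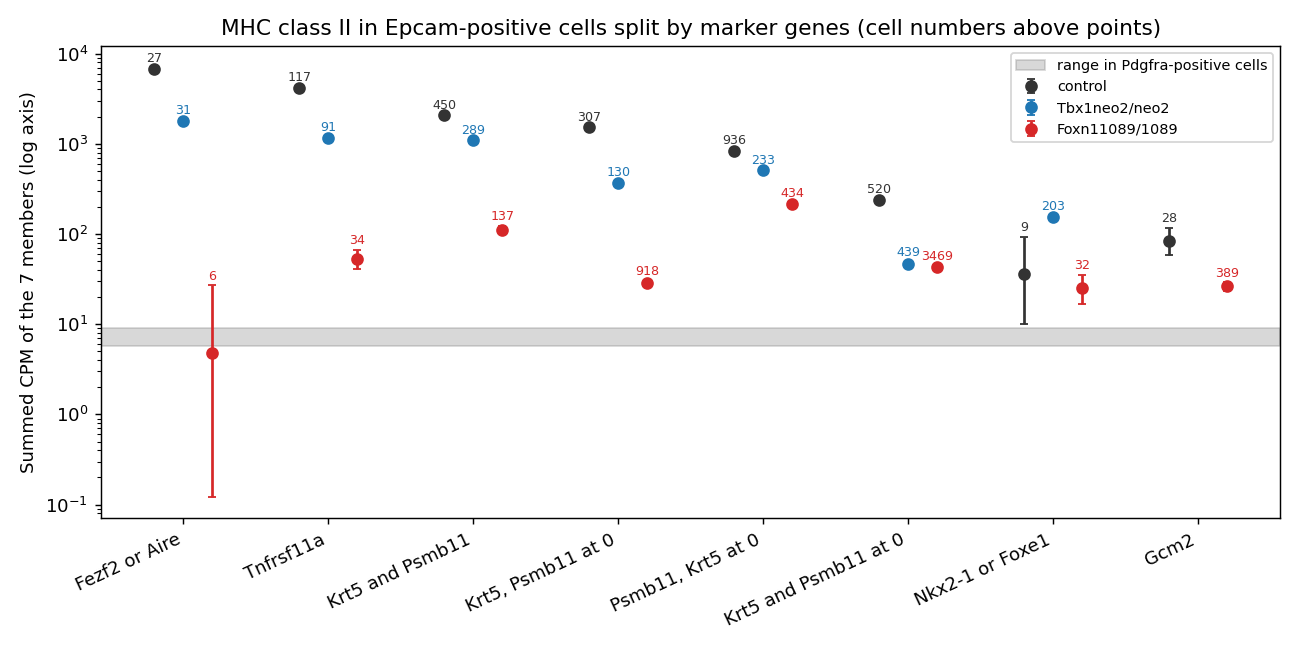
Summed level of the 7 genes (CPM, log axis) in subsets of Epcam-positive cells set by single genes, with 95% Poisson intervals; the grey band is the range over libraries in Pdgfra-positive cells. Control levels run from 36.4 CPM in cells with Nkx2-1 or Foxe1 to 6799.8 CPM in cells with Fezf2 or Aire, and Foxn11089/1089 is highest in Psmb11 cells without Krt5, at 215 CPM.

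The genes around class II were counted in the same gate. Of the other class II genes, H2-DMb2 and H2-Oa had 30 UMIs and both were lower in Foxn11089/1089 (2 of 2, beside 8.32% of all genes). H2-DMb2 had 77, 106 and 7 UMIs in control, library labelled Tbx1neo2/neo2 and Foxn11089/1089, a log2 ratio of -5.09 in Foxn11089/1089, and H2-Oa, a chain of the H2-DM inhibitor H2-O, had 1.64, 0.753 and 0.594 CPM. H2-Oa was also the 1 of 2 that was lower in the library labelled Tbx1neo2/neo2, beside 4.75% of all genes. It had 59 UMIs in the control and 36 in that library. Of 7 promoter-binding factors none was lower or higher by 2-fold in Foxn11089/1089, beside 8.32% and 18.4% of all genes, and 1 was higher in the library labelled Tbx1neo2/neo2, beside 20.6%. This was Rfx5 at 3.35, 7.89 and 5.91 CPM, which was no longer past 2-fold with size factors. Rfxap had 73.8, 57.4 and 63.5 CPM, Nfyb 50.5, 57.7 and 63.1 CPM, and Creb1 31.1, 49.0 and 47.2 CPM.

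Of 8 inducers and lineage factors with enough UMIs, 2 were lower in Foxn11089/1089, beside 8.32% of all genes, and 1 in the library labelled Tbx1neo2/neo2, beside 4.75%. Spi1, a myeloid factor, was lower in both, with 119, 16 and 74 UMIs. The receptor chain Ifngr2 had 44.1, 36.4 and 22.9 CPM (log2 ratio -0.94 in Foxn11089/1089), the kinase Jak1 58.1, 87.4 and 81.8 CPM, and Irf8 41.8, 43.0 and 30.04 CPM.

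Of 8 genes for peptide and invariant chain processing, 2 were lower and 1 higher in Foxn11089/1089, beside 8.32% and 18.4% of all genes, and 1 lower in the library labelled Tbx1neo2/neo2, beside 4.75%. Prss16, the thymus-specific serine protease of cortical epithelium, had 291, 344 and 4.51 CPM, a log2 ratio of -6.01 in Foxn11089/1089, further down than Cd74. In the library labelled Tbx1neo2/neo2 its ratio was 0.24, where that of Cd74 was -1.49. Ctsl, the cathepsin that trims the invariant chain in cortical epithelium, had 791, 1205 and 403 CPM (log2 ratio -0.97 in Foxn11089/1089), just short of 2-fold, and past it with size factors. Ctss, the cathepsin of marrow-derived presenting cells, had 60, 16 and 52 UMIs and was lower in both by CPM. The control UMIs of Ctss lay in 12 cells, 0.542% of the gate, against 1.19% and 0.645% of cells in the other libraries. Lgmn, an asparaginyl endopeptidase, was higher in Foxn11089/1089, with 22.3, 26.98 and 86.5 CPM.

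Only 3 of 6 turnover and costimulation genes had 30 UMIs, and 2 were lower in Foxn11089/1089, beside 8.32% of all genes. Cd40 had 7.14, 4.43 and 0.540 CPM (log2 ratio -3.72) and Cd83, which keeps class II on the surface, 30.5, 35.4 and 11.5 CPM (log2 ratio -1.41). March8, a ligase that removes class II from the surface, had 6.997, 15.8 and 13.7 CPM and was the 1 gene higher in the library labelled Tbx1neo2/neo2, beside 20.6% of all genes, and was no longer past 2-fold with size factors.

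The Napsa-positive gate was mixed, with Lck, a gene of early T cells, in most cells of every library. The dendritic genes Itgax, Zbtb46 and Flt3 were found in 12.3%, 1.04% and 12.01% of control cells of the gate, and Clec9a in none, whereas Lck and Tcf7, genes of early T cells, were found in 71.8% and 53.0%, Kit in 65.8% and Mpo, a granulocyte gene, in 57.4%. In the library labelled Tbx1neo2/neo2, Lck was in 91.8% and Flt3 in 46.6% of cells, and in Foxn11089/1089 Lck was in 53.9% and Flt3 in 43.5%. In the former, Flt3 was thus also found in cells with Lck, and does not set dendritic cells apart there. Other dendritic markers of the list are not given singly. Summed over the list, dendritic markers stood above thymocyte markers in the control and Foxn11089/1089, and below them in the library labelled Tbx1neo2/neo2. The lists differ in length and a sum follows its most abundant genes. It is therefore no measure of the share of dendritic cells. The cells are called Napsa-positive here because of this mix.

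In Napsa-positive cells the summed class II level was highest in Foxn11089/1089, at 1169.8 CPM (1142 to 1198), against 446 CPM (431 to 461) in control cells and 178 CPM (166 to 191) in the library labelled Tbx1neo2/neo2. Cd74 had 233, 82.1 and 604 CPM in control, library labelled Tbx1neo2/neo2 and Foxn11089/1089, H2-Aa 78.5, 19.5 and 214 CPM, and H2-Eb1 41.0, 13.2 and 135 CPM. H2-Ab1 had 44.3, 21.4 and 116 CPM. Of 6 genes with 30 UMIs, 5 were at least 2-fold higher in Foxn11089/1089, beside 9.92% of all genes, and H2-DMb1 was not (11.2, 6.93 and 16.2 CPM). In the library labelled Tbx1neo2/neo2, Cd74, H2-Aa, H2-Ab1 and H2-Eb1 were at least 2-fold lower (4 of 6), beside 3.44% of all genes. The direction in Foxn11089/1089 was thus the opposite of that in Epcam-positive cells. With size factors 5 of 6 genes, H2-DMb1 added, were lower in the library labelled Tbx1neo2/neo2 (7.73% of all genes lower and 3.56% higher, against 3.44% and 11.4%), and 4 of 6 higher in Foxn11089/1089, H2-DMa dropping out (7% lower and 6.34% higher, against 4.41% and 9.92%).

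These sums rested on few cells. Cells with at least 20 class II UMIs were 26 of 383 in the control, 7 of 73 in the library labelled Tbx1neo2/neo2 and 54 of 193 in Foxn11089/1089, and they held 87.2%, 75.9% and 94.2% of the UMIs. Thinned to 2000 UMIs, the share of cells with Cd74 was 9.69%, 6.85% and 32.3%, and unthinned it was 17.0%, 28.8% and 50.8%, at median depths of 20295, 65942 and 29554 UMIs. Without the 5 cells with most class II UMIs in each library the log2 ratio of the sum was -2.52 in the library labelled Tbx1neo2/neo2 and 1.65 in Foxn11089/1089, compared with -1.32 and 1.39. It was -1.97 and 0.94 when 2 UMIs of each gate gene were required, and -3.87 and 0.57 when cells were thinned before gating, so that the Foxn11089/1089 sum was then under 2-fold.

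**Figure D5:**
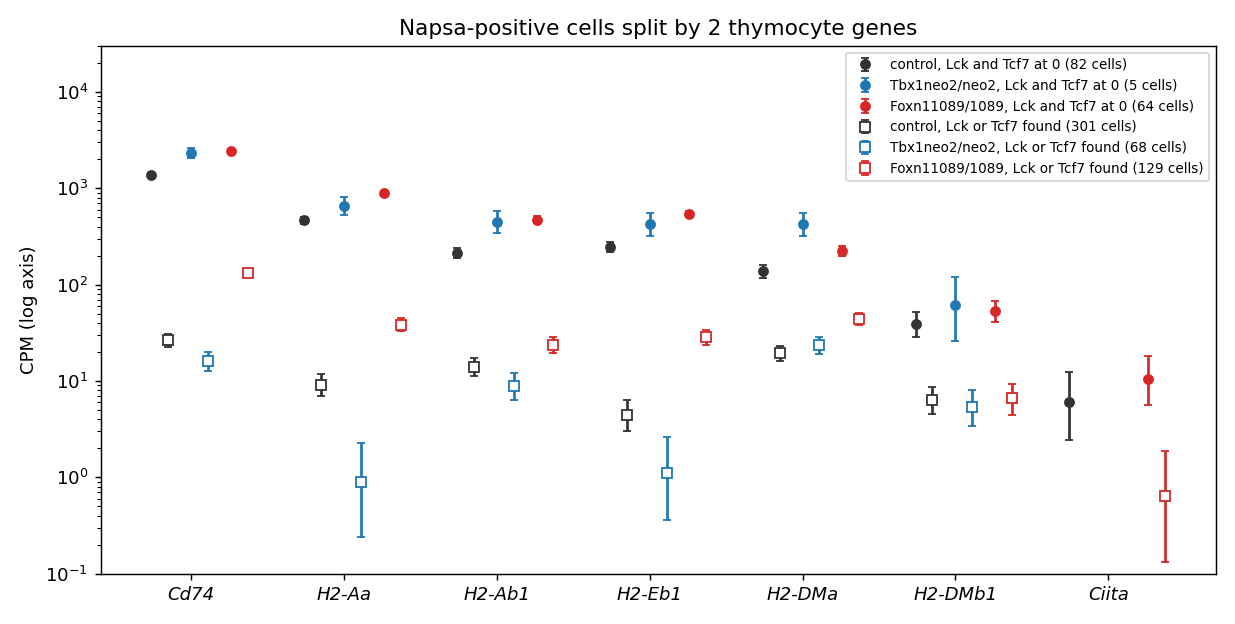
Level of each gene (CPM, log axis) in Napsa-positive cells split by whether Lck and Tcf7 were at 0 (filled circles) or either was found (open squares), with 95% Poisson intervals; genes with 0 UMIs are not drawn. Cd74 runs from 1387 to 2412 CPM in the cells without Lck and Tcf7 and from 16.1 to 132 CPM in the others.

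Cells without the early T cell genes held 84.8%, 69.6% and 81.5% of the class II UMIs of the gate in control, library labelled Tbx1neo2/neo2 and Foxn11089/1089, in a split chosen after the counts had been seen. These cells, with Lck and Tcf7 at 0, were 82, 5 and 64 and had 2495 CPM (2405 to 2588), 4354 CPM (4004 to 4726) and 4599.8 CPM (4481 to 4721) of the 7 genes. The remaining 301, 68 and 129 cells had 79.7, 55.7 and 274 CPM. Among the former, Cd74 had 1387, 2337 and 2412 CPM, H2-Aa 467, 655 and 886 CPM, and H2-DMa 138, 426 and 226 CPM. The library labelled Tbx1neo2/neo2 was then above the control rather than below it, on 5 cells. In Foxn11089/1089 H2-Ab1 and H2-Eb1 were more than 2-fold higher there (2 of 6 genes), beside 11.2% of all genes higher and 4.7% lower, and in the library labelled Tbx1neo2/neo2 H2-Ab1 and H2-DMa were (2 of 6), beside 14.7%.

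In Napsa-positive cells 4 of 8 processing genes were higher in Foxn11089/1089 and the other 4 passed in neither direction, beside 9.92% of all genes higher and 4.41% lower. Among the 4 were Ifi30, the lysosomal thiol reductase, with 52.1, 47.0 and 218 CPM, and Ctss with 26.4, 43.3 and 88.0 CPM. Of 4 turnover and costimulation genes 3 were higher, with the ligand Cd86 at 2.35, 5.42 and 21.8 CPM. Of promoter-binding factors 1 of 7 was higher. The summed dendritic markers of the gate were 512, 231 and 531 CPM, and those of thymocytes 315, 342 and 228 CPM, and their part in these differences was not tested.

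C1qa-positive cells, a gate that leaves out cells with Napsa or Cd3g, carried the invariant chain nearly without the chains it serves. Each of 9 macrophage markers was found in at least 73.1% of the cells in every library, the lowest shares being those of Pf4 and Mrc1 in the control. Cd74 had 105, 44 and 89 UMIs in control, library labelled Tbx1neo2/neo2 and Foxn11089/1089, and was found in 65.4%, 37.1% and 56.5% of cells. H2-Aa had 1, 0 and 0 UMIs, H2-Ab1 1, 3 and 1, and H2-Eb1 and Ciita 0 in every library. For H2-Eb1, 0 UMIs allow up to 3 counts, or 10.4 CPM in the control, 2.62 CPM in the library labelled Tbx1neo2/neo2 and 3.39 CPM in Foxn11089/1089. Ptprc-positive cells with several of C1qa, Napsa and Cd3g, counted apart and not all with C1qa, had 52, 5 and 57 H2-Aa UMIs and 70, 31 and 62 H2-Ab1 UMIs. The few chain UMIs thus hold for this gate and not for all cells with C1qa. In C1qa-positive cells H2-DMa had 15, 26 and 9 UMIs and H2-DMb1 2, 13 and 9.

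Cd74 in these cells was at 362 CPM (296 to 439) in the control, 38.5 CPM (28.0 to 51.6) in the library labelled Tbx1neo2/neo2 and 101 CPM (80.7 to 124) in Foxn11089/1089. Cd74 and H2-DMa were at least 2-fold lower in the library labelled Tbx1neo2/neo2, the 2 genes with 30 UMIs, beside 5.6% of all genes, and Cd74, the 1 gene with 30 UMIs, in Foxn11089/1089, beside 5.64%. With gates that may overlap, the Cd74 log2 ratios were -1.65 in the library labelled Tbx1neo2/neo2 and -0.72 in Foxn11089/1089. Thinned before gating, the Foxn11089/1089 ratio was -0.98, so it was under 2-fold in both cases. With size factors H2-DMa was at -0.91 and no longer past 2-fold. Of all genes in this gate 2.47% were then lower and 31.6% higher in the library labelled Tbx1neo2/neo2, against 5.6% and 22.2% with total UMIs, and 2.7% and 23% in Foxn11089/1089, against 5.64% and 15.8%. The control cells of this gate were only 26, at a median of 10829.5 UMIs, and 2 of them held 37.1% of its class II UMIs. Summed epithelial markers were also higher in them, at 197 CPM against 28.9 and 10.2 CPM, while the mesenchymal markers were 3.45, 71.7 and 195 CPM, and their part in the Cd74 levels was not tested.

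Cd3g-positive cells were nearly without class II RNA. In 103 control cells Cd74 had 11 UMIs and H2-Ab1 21, found in 14.6% of cells, and H2-Aa, H2-Eb1 and Ciita had 0. The other libraries had only 4 and 2 such cells. H2-Ab1 in 1.96% of the thinned control cells compares with 0.527% of thinned Pdgfra-positive cells.

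Cells with both Epcam and Ptprc, 328, 220 and 204, had Cd74 at 68.1, 49.4 and 271 CPM. In those with Napsa as well (233, 183 and 148) Cd74 was 321 CPM (308 to 335) in Foxn11089/1089, below the 604 CPM (585 to 624) of Napsa-positive cells without Epcam. The highest Scrublet scores, which mark likely doublets, fell on 41, 17 and 89 of the 328, 220 and 204 cells with both genes. Among all kept cells they fell on 314 of 5932, 235 of 5516 and 1191 of 11772. Most cells with both genes were thus not marked in any library. Since both genes were found, their class II RNA cannot be assigned to either lineage.

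Across the 26 sums of a gate in a library, the genes whose level was most like that of the 7 genes together were Psmb10 (Pearson r = 0.82), an immunoproteasome subunit, Rel (0.82), an NF-kappaB subunit, Sod2 (0.82), a mitochondrial superoxide dismutase, Apobec3 (0.81) and Ociad2 (0.81), among 13686 genes. Of the 7 genes Cd74 had 0.92 and H2-Aa 0.80 against the sum that contains them. The sums share libraries and depth, and the correlation is given as a description.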

How the data were processed

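Thymic lobes were profiled by 3′ single-cell RNA-seq, 1 library per genotype. The authors aligned reads to mm10 and counted with Cell Ranger 3.0.0, and the files they deposited are raw UMI counts per gene and cell barcode, not normalized; their Seurat clusters were not used here. Samples were grouped by the genotype in the labels.

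Barcodes with fewer than 200 genes or with 20% or more mitochondrial UMIs were removed (478, 243 and 675 in control, Tbx1neo2/neo2 and Foxn11089/1089). A gate needed 1 or more UMIs of its gene, and cells with genes of several gates were counted apart; red blood cells had at least 50% globin UMIs. UMIs were summed over a gate and divided by its total (CPM). Intervals at 95% are Poisson for a level, Clopper-Pearson for a share and conditional binomial for a ratio. A gene was called higher or lower at 2-fold or more with at least 30 UMIs over both libraries in the gate. Shares were also taken after thinning each cell to 2000 UMIs. Likely doublets were taken from the highest Scrublet scores, 0.8% of barcodes for each 1000, and were kept. No file maps cells to embryos, so no test between genotypes was made.

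The 7 genes, the gates and the lists were chosen with earlier results of these data known. The lists held other class II genes, promoter-binding factors, inducers and lineage factors, processing genes, and turnover and costimulation genes; up to 4 of each, those with most UMIs in the gate, were to be named, and genes of a list that passed the 2-fold limit were named after their values were seen. The values of 1 gene of the inducer list are not reported here, though the list's counts include it. Likeness to the summed genes was Pearson's r of log2(CPM + 1) over sums of at least 100000 UMIs, among genes with at least 300 UMIs. Promoter sequences are from RefSeq (GRCm38.p6), and gene coordinates from GENCODE on GRCm38. The sequence table held windows of 4 of the 7 genes. On simulated counts, intervals held the true ratio for 95.4% and 95.7% of genes in Epcam-positive cells (library labelled Tbx1neo2/neo2 and Foxn11089/1089), 95.9% and 95.9% in Napsa-positive and 96.3% and 96.5% in C1qa-positive cells. Alternatives changed the gate limits, overlap of gates, cell filters, doublets, depth, purity, scaling and weight of each cell. Python 3.11.15 was run with scanpy 1.11.5, scipy 1.17.1, anndata 0.12.19, numpy 2.4.6, matplotlib 3.10.9 and pandas 2.3.3.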

Additional observations from a re-analysis of the deposited data

How the results depend on the processing

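No paired analysis was possible because each genotype has 1 library, and for the same reason no library was left out. Of 76 recomputed log2 ratios of the summed 7 genes, 34 lay within the counting interval of the value in the report, 41 lay outside it in the same direction and 1 changed sign; the cause of these shifts was not tested. For single genes 219 recomputed ratios lay within the interval, and 10 in all changed sign, 4 of them of genes past 2-fold in the report. The alternatives by Epcam at least 3 UMIs, Foxn1, Gcm2 with Nkx2-1 and Foxe1, Lck with Tcf7, and C1qa at least 3 UMIs were chosen after seeing the data.

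In Epcam-positive cells the library labelled Tbx1neo2/neo2 (-0.96) gave -0.80 with at least 2 Epcam UMIs, -0.72 with 3, -1.02 with overlapping gates, -0.88 thinned, -1.04 without the 5 highest cells, -0.74 without cells bearing genes of other types, -0.67 in cells with Foxn1, -0.70 without Gcm2, Nkx2-1 or Foxe1 cells, -1.36 with median-of-ratios size factors and -1.17 as the mean of each cell's CPM. In the same order, without the 5 highest cells and the mean, Foxn11089/1089 (-4.16) gave -4.05, -3.96, -3.24, -3.65, -4.06, -3.98, -4.07 and -4.40, and -4.08 without the highest Scrublet scores.

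In Napsa-positive cells the library labelled Tbx1neo2/neo2 (-1.32) gave -1.97 with 2 UMIs of the gate genes, -1.21 with overlapping gates, -3.87 thinned, -2.52 without the 5 highest cells, -1.76 with a dendritic marker (Flt3 included) required, -1.66 with size factors and -0.88 as the mean. With Lck and Tcf7 at 0 it turned to 0.80, with Cd74 at 0.75, H2-Aa at 0.49, H2-Ab1 at 1.07 and H2-Eb1 at 0.80, on 5 cells. Foxn11089/1089 (1.39) gave 0.94, 1.69, 0.57, 1.65, 1.20, 1.16 and 1.58 in the order before that turn, 0.88 with Lck and Tcf7 at 0, and 1.32 without the highest Scrublet scores.

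In C1qa-positive cells the library labelled Tbx1neo2/neo2 (-2.51) gave -1.03 with overlapping gates and -3.20 thinned, the latter on 1 and 5 UMIs. Foxn11089/1089 (-1.81) gave -0.47 with overlapping gates, -0.81 thinned, -1.38 without the 5 highest cells and -1.31 with at least 3 C1qa UMIs and any Ptprc count. Depth limits Ciita in every gate, and in C1qa-positive cells all genes but Cd74 and H2-DMa.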

Other observations

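Among cells with Pecam1 or Cdh5 and neither Epcam nor Ptprc the 7 genes summed to 93.1 CPM (80.0 to 108) in 114 control cells, 6.57 CPM (4.07 to 10.05) in 134 cells of the library labelled Tbx1neo2/neo2 and 61.0 CPM (52.3 to 70.7) in 101 Foxn11089/1089 cells. Cd74 had 89, 4 and 97 UMIs, found in 6.14%, 2.24% and 8.91% of these cells. The levels thus rest on few cells, and whether those were vessel cells was not tested. Red blood cells had 5.04, 1.69 and 1.60 CPM of the 7 genes.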
